A study of Mus musculus with 51 samples.

Results

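The response of neutrophils labelled JUNB-/- to zymosan was read from 4 RNA-seq libraries, chosen by their labels out of the 51 samples of a mouse neutrophil series. That series profiled neutrophils of several tissues and tested the loss of single transcription factors, among them JUNB, in a cultured neutrophil line. All libraries used here came from ER-Hoxb8 neutrophils, which grow from haematopoietic progenitors held immature by an oestradiol-dependent Hoxb8 protein and mature once oestradiol is withdrawn. The JUNB-/- zymosan group (2 libraries) and the JUNB-/- DMSO group (2 libraries) had differentiated for 5 days with G-CSF and stem cell factor and were then held for 2 h with 50 µg/ml zymosan or with the DMSO vehicle. WT zymosan and WT DMSO libraries of the same count table (2 each, with the same days, dose and time) served as the reference for genes whose response differed, and 4 WT libraries of a second count table with the same labelled conditions were set beside them. The titles mark the DMSO libraries as 0 h whereas the treatment label gives DMSO for 2 h, and the treatment label was followed. How the JUNB-/- cells were made, and whether they are 1 clone, is not given in the sources used here. The labels number the 2 libraries of a group without saying that they came from separate cultures, so p-values measure only a spread between libraries, which may be technical. In the main fit this spread was estimated jointly over the JUNB-/- and WT libraries and 4 CEBPB-/- libraries of the same count table. Those CEBPB-/- libraries, 2 with zymosan and 2 with DMSO, had the same labelled days, dose and time.

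Zymosan is a particle of yeast cell wall whose glucans and lipoproteins are sensed by C-type lectins such as Dectin-1 and by the Toll-like receptor TLR2. These receptors act through Syk, Card9 and MyD88 on NF-kB and on MAP kinases, and the MAP kinases raise and activate AP-1, a dimer of a Jun protein with a Fos, Fra, ATF or BATF protein. JUNB is one of the Jun proteins, and in myeloid cells AP-1 and NF-kB turn on cytokine, chemokine and feedback genes soon after a microbial stimulus.

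Read pairs assigned to genes numbered 24332495 to 32402492 in the JUNB-/- libraries, against 22242143 to 28012996 in the WT libraries. Levels are given as CPM, counts scaled to a common library size after TMM, whose factors were 0.6911 and 0.6851 in JUNB-/- cells with zymosan and 1.09 and 1.108 with DMSO. Junb itself (ENSMUSG00000052837, GRCm38 chr8:84974484-84978718) had 2084 and 2158 CPM in JUNB-/- cells with zymosan and 486 and 511 CPM in JUNB-/- cells with DMSO, against 2381 and 2229.6 CPM in WT cells with zymosan and 851 and 948 CPM in WT cells with DMSO. Its mRNA was thus present in every library labelled JUNB-/-, and counts over the whole gene do not check the loss of the protein, so the genotype is used as labelled. The 10 neutrophil markers summed to 81749.8 to 84615 CPM in JUNB-/- cells with zymosan and 73756 to 80697 CPM in JUNB-/- cells with DMSO, against 21029 to 21375 CPM and 25941 to 27579 CPM in WT cells. The 12 eosinophil and mast cell markers summed to 235 to 241 CPM and 224 to 229.6 CPM in JUNB-/- cells with zymosan and DMSO, against 1507 to 1584 CPM and 1857 to 1873 CPM in WT cells, and their part in the differences between the genotypes was not tested. The 11 monocyte and macrophage markers summed to 1435 to 1463 CPM and 1221 to 1233 CPM in JUNB-/- cells, against 1516 to 1556 CPM and 1406 to 1432 CPM in WT cells. Within that sum Cx3cr1 was lower and Ccr2 higher in JUNB-/- than in WT cells with DMSO. The 10 erythroid and platelet markers summed to 4.49 to 5.5 CPM and 3.79 to 4.9 CPM in JUNB-/- cells with zymosan and DMSO. In WT cells they summed to 78.5 to 89.0 CPM and 39.6 to 40.4 CPM, and their part was not tested either. Lymphocyte markers stayed under 7 CPM in every library. In bulk RNA, fewer cells of a type and less RNA per cell cannot be told apart. Mitochondrial genes took 1.32% and 1.34% of the assigned pairs in JUNB-/- cells with zymosan and 0.577% and 0.563% with DMSO, against 0.539% and 0.499% in WT cells with zymosan and 0.438% and 0.407% with DMSO.

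Zymosan changed most of the measured transcriptome of JUNB-/- cells. Of 12899 genes tested, 4703 rose (36.5%) and 4734 fell (36.7%) at an adjusted p under 0.05 (edgeR quasi-likelihood test, Benjamini-Hochberg), together 73.2%, and 2906 rose by 2-fold or more (22.5%) while 2220 fell by 2-fold or more (17.2%), together 39.7%. In WT cells the same test called 4608 rises (35.7%) and 5143 falls (39.9%), together 75.6%, and 36.6% changed and 19.2% rose by 2-fold or more. The difference between the 2 responses, tested as an interaction, was called for 5619 genes (43.6%), with 3629 positive (28.1%), meaning a more positive log2 change in JUNB-/- cells, and 1990 negative (15.4%), and it reached 2-fold or more for 1622 genes (12.6%), positive in 8.91% and negative in 3.67% of the tested genes. Scaling each library by its total count in place of TMM lowered the median response of all genes by 0.67 on the log2 scale in JUNB-/- cells, where 2831 genes then rose and 7365 fell, and by 0.70 in WT cells, where 2418 rose and 8261 fell. Scaling by relative log expression (RLE, the method behind DESeq2's size factors) split the called differences into 2947 positive and 2649 negative, and shifted the median difference of all genes by -0.11 from 0.11. Leaving out 1 DMSO library of either genotype gave a like split, with 51.1% to 53.0% of the called differences positive in place of 64.6%.

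**Figure D1:**
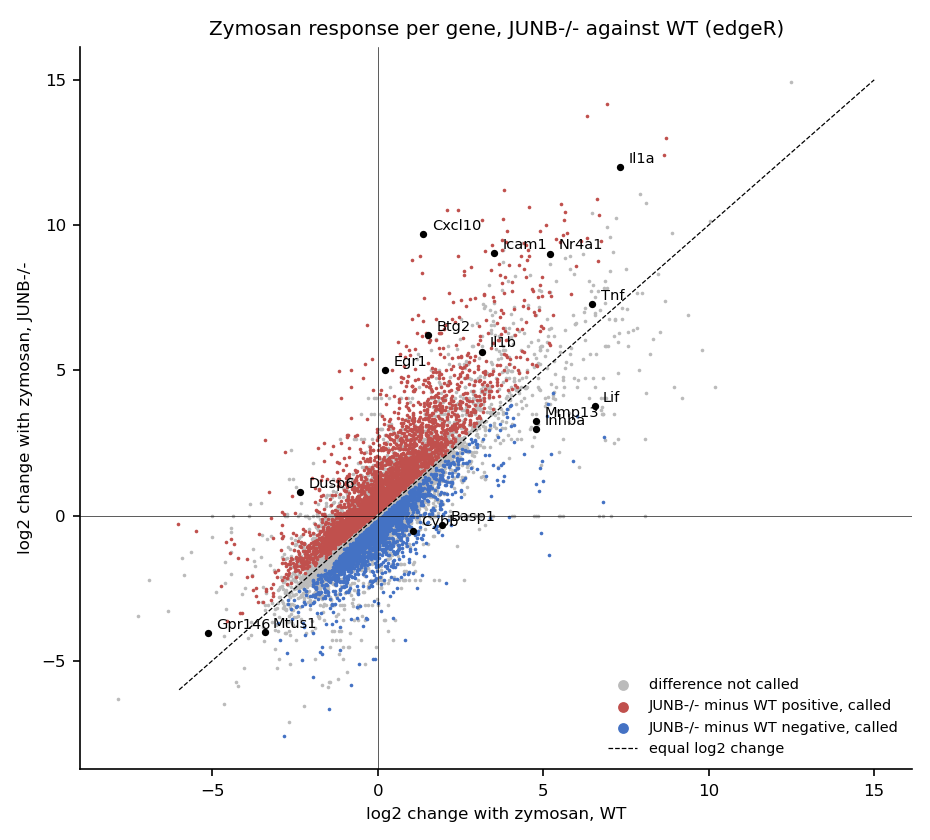
Each point is 1 of the 12899 genes tested, placed by its log2 change with zymosan in WT cells (x axis) and in JUNB-/- cells (y axis), each from 2 zymosan and 2 DMSO libraries. Genes whose difference was called lie above the dashed line of equal change (positive, 3629 genes) or below it (negative, 1990 genes), and Cxcl10 stands far above the line while Lif, Inhba and Mmp13 stand below it.

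The largest rises of well-measured genes (mean log2 CPM of 4 or more) in JUNB-/- cells were of cytokines, orphan nuclear receptors and adhesion and survival genes, several of which had under 1 CPM with DMSO. Nr4a3, an orphan nuclear receptor of the immediate early class, had 402 and 419 CPM with zymosan against 1 and 0 counts with DMSO, a ratio of 23300 (95% counting interval 4190 to 922000). Il23a, the p19 subunit of interleukin-23, had 225 and 215 CPM with zymosan against 1 and 1 counts with DMSO, a ratio of 6230 (95% counting interval 1720 to 51400). For both genes a few reads with DMSO set the ratio, and the zymosan libraries lay far above the DMSO libraries. Il1a, the alarmin interleukin-1 alpha, had 1036 and 1034 CPM with zymosan against 0.269 and 0.223 CPM with DMSO (log2 change 12.01 ± 0.08 SE, edgeR adjusted p = 1.06e-69). Rasgef1b, a Ras-family exchange factor induced by Toll-like receptor ligands in macrophages, had 378 and 364 CPM against 0.269 and 0.185 CPM (log2 change 10.63 ± 0.11). Cdc42ep2, an effector of the GTPase CDC42, had 142 and 136 CPM against 0.201 and 0.223 CPM (log2 change 9.33 ± 0.12). Zymosan libraries that did not overlap the DMSO libraries were a condition for naming these genes, so their separation is no separate result.

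Icam1, the adhesion ligand of the beta-2 integrins, had 2122 and 2102 CPM in JUNB-/- cells with zymosan against 3.93 and 4.04 CPM with DMSO, a 529-fold rise. Cxcl10, a chemokine ligand of CXCR3, had 362 and 369 CPM against 0.4701 and 0.408 CPM, a 821-fold rise. Ccrl2, an atypical receptor that binds chemerin, had 4617 and 4631 CPM against 15.3 and 15.7 CPM, a 299-fold rise. These were among the strongest of the 2906 rises, and Ccrl2 and Icam1 reached levels above 2000 CPM. Fth1, the heavy chain of the iron store ferritin, was among the 10 genes of highest count per length, with 23369 and 24179 CPM with zymosan against 2976 and 2842 CPM with DMSO. S100a9, a calprotectin subunit and likewise among those 10 genes, had 38428 and 39429 CPM with zymosan against 32598 and 29998 CPM with DMSO (log2 change 0.32 ± 0.03), a value that turned to -0.36 under total-count scaling.

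The largest falls of well-measured genes, the deepest 4.04 on the log2 scale, were shallower than the largest rises. Gpr146, an orphan G protein-coupled receptor, had 7.48 and 8.88 CPM in JUNB-/- cells with zymosan against 134 and 137 CPM with DMSO (log2 change -4.04 ± 0.07, edgeR adjusted p = 2.25e-49). Mtus1, which encodes a microtubule-associated protein, had 72.5 and 65.7 CPM against 1108 and 1111 CPM (log2 change -4.01 ± 0.04). Abcd2, a peroxisomal fatty acid transporter, had 31.9 and 31.5 CPM against 306 and 304 CPM (log2 change -3.26 ± 0.05). Here too, libraries that did not overlap between zymosan and DMSO were a condition for naming a gene. Sema6b, Nlrx1, Setd1b, Mrtfa and Asb7 completed the 8 largest falls, with log2 changes of -3.35, -3.19, -3.16, -3.10 and -3.07, and Mrtfa encodes a coactivator of serum response factor. WT cells fell in these genes too, where Gpr146, Mtus1 and Abcd2 changed there by -5.13, -3.42 and -3.41.

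Receptors for zymosan and their adaptors moved in both directions, as did all tested genes, of which 36.5% rose and 36.7% fell. Of 14 C-type lectin, Syk and Card9 pathway genes, 11 rose and 3 fell, and their median was 0.6 on the log2 scale, or -0.07 under total-count scaling. Clec4n, which encodes Dectin-2, had 294 and 302 CPM in JUNB-/- cells with zymosan and 5.78 and 5.04 CPM with DMSO, against 809 and 801 CPM and 226 and 220.0 CPM in WT cells. The zymosan groups of the genotypes differed less than the DMSO groups, and the difference in log2 change was 3.93 ± 0.07 (edgeR adjusted p = 1.03e-45). Clec4e, which encodes Mincle, had 7465 and 7473 CPM with zymosan against 529 and 512 CPM with DMSO, a 14.3-fold rise. Clec4d, its partner lectin MCL, rose 5.17-fold. Malt1, the paracaspase of the Card9 complex, had 455 and 455 CPM against 37.6 and 40.9 CPM, and its log2 change of 3.54 ± 0.04 in JUNB-/- cells stood beside 3.62 ± 0.04 in WT cells with no called difference (-0.09, edgeR adjusted p = 0.243), although RLE scaling gave -0.20 with an edgeR adjusted p of 0.00555. Among 18 Toll-like receptor genes and adaptors, 10 rose and 7 fell (median 0.98, or 0.30 under total-count scaling). Cd14, a coreceptor of TLR2 and TLR4, had 5219 and 5269 CPM with zymosan against 119 and 112 CPM with DMSO. Tlr9, the receptor for unmethylated DNA, had 83.2 and 81.96 CPM against 1.44 and 1.002 CPM, a 66.7-fold rise. Irak2 and Tlr7 rose 12.4-fold and 10.9-fold.

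AP-1 genes other than Fos rose with zymosan in JUNB-/- cells. Of 11 AP-1 subunit genes tested, 10 rose and 1 fell, with a median log2 change of 2.65 in JUNB-/- cells and 1.51 in WT cells, beside -0.01 and -0.07 over all tested genes. Batf3, the other member of the list, did not pass the filter on low counts. Fosl1, which encodes the Fos-related protein FRA1, had 355 and 363 CPM with zymosan and 1.58 and 1.85 CPM with DMSO in JUNB-/- cells, against 100.1 and 110.4 CPM and 2.92 and 2.96 CPM in WT cells. Jun had 1306 and 1342 CPM with zymosan and 210.3 and 212 CPM with DMSO in JUNB-/- cells, against 521 and 499 CPM and 278 and 290.1 CPM in WT cells. Batf, a small AP-1 protein that pairs with Jun proteins, had 283 and 282 CPM and 22.2 and 21.4 CPM in JUNB-/- cells, against 95.4 and 80.6 CPM and 17.02 and 17.6 CPM in WT cells. For these 3 genes the JUNB-/- zymosan libraries stood above the WT zymosan libraries, and the differences in log2 change were 2.55 ± 0.17, 1.80 ± 0.05 and 1.36 ± 0.08 (edgeR adjusted p = 1.71e-19, 9.27e-38 and 5.05e-21).

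Atf3, a stress-induced partner of Jun proteins that often represses cytokine genes, had 277 and 272 CPM with zymosan and 12.7 and 11.8 CPM with DMSO in JUNB-/- cells, against 530.1 and 515 CPM and 53.4 and 52.2 CPM in WT cells. Fosb had 42.7 and 43.4 CPM and 1.95 and 1.93 CPM in JUNB-/- cells, against 103 and 109.7 CPM and 19.6 and 19.1 CPM in WT cells. Both rose more steeply in JUNB-/- cells, by a difference of 1.18 and 2.01 on the log2 scale, while both of their JUNB-/- groups lay below the matching WT groups. Fos ran the other way within each genotype, with 93.2 and 98.7 CPM with zymosan and 142 and 142 CPM with DMSO in JUNB-/- cells, against 63.8 and 61.9 CPM and 265 and 262 CPM in WT cells. Its fall was shallower in JUNB-/- cells, with log2 changes of -0.56 ± 0.04 in JUNB-/- cells and -2.07 ± 0.04 in WT cells (edgeR adjusted p of the difference = 1.39e-29). Jdp2, a repressor that dimerises with Jun proteins, was the AP-1 gene whose rise was smaller in JUNB-/- cells, at 1.80 ± 0.04 against 2.66 ± 0.04 in WT cells. Fosl2, Jund and Batf2 rose by 0.95, 0.96 and 3.804 on the log2 scale, and Batf2 was at a low level, with 0.854 and 1.22 CPM with zymosan. Its called difference of 2.29 (edgeR adjusted p = 0.0367) was lost without the first JUNB-/- DMSO library (1.55, adjusted p = 0.261). Junb mRNA rose by 2.09 ± 0.04 in JUNB-/- cells and by 1.36 ± 0.04 in WT cells. Against the WT libraries of a second count table the difference of Jdp2 was 0.04 and that of Fosl2 was -0.28, where it was 0.29 here. The difference of Fos was 0.27 there, where it was 1.51 here, and its log2 change in those WT cells was -0.84. In that joint fit Fos had 36.1 and 36.6 CPM in WT cells with DMSO, below the 152 and 152 CPM of JUNB-/- cells with DMSO. In all, 10 of the 11 differences were positive and 1 was negative (9 and 1 against the second WT table), beside 28.1% and 15.4% of all tested genes.

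Other inducible transcription factors followed. All 11 NF-kB and IkB genes rose in JUNB-/- cells, beside 36.5% of all tested genes. Their median log2 change was 4.28 in JUNB-/- cells and 2.89 in WT cells. The difference was positive for all 11, or 10 of them under RLE scaling, beside 28.1% of all tested genes. Nfkbiz, an IkB protein that works in the nucleus as a coactivator, had 4759.6 and 4847 CPM in JUNB-/- cells with zymosan against 40.02 and 41.2 CPM with DMSO. Nfkbie, a cytoplasmic IkB protein, had 738 and 732 CPM with zymosan and 17.5 and 16.02 CPM with DMSO in JUNB-/- cells, against 358 and 342 CPM and 57.3 and 65.04 CPM in WT cells. Rel, the subunit c-Rel, had 951 and 955 CPM against 48.5 and 46.3 CPM, and Nfkbid rose 46.5-fold. All 10 genes of the Egr, Nr4a and Ier list with Srf rose (median 4.46, 2.13 in WT cells). Egr1 had 469.9 and 469 CPM with zymosan and 15.5 and 13.7 CPM with DMSO in JUNB-/- cells, against 321 and 332 CPM and 274 and 282 CPM in WT cells. Egr3 had 312 and 327 CPM and 0.638 and 0.668 CPM in JUNB-/- cells, against 209 and 209 CPM and 36.1 and 42.4 CPM in WT cells. For both Egr genes the zymosan groups of the 2 genotypes in this table were within 2-fold of each other. Their DMSO groups were at least 10-fold apart. Egr1 did not keep this pattern against the second WT table. Fitted jointly, Egr1 had 499 and 499 CPM with zymosan and 16.7 and 14.6 CPM with DMSO in JUNB-/- cells. The WT libraries of that table had 162 and 160 CPM with zymosan and 87.0 and 82.6 CPM with DMSO. Nr4a1 had 1291 and 1361 CPM and 2.52 and 2.597 CPM in JUNB-/- cells, against 1742 and 1734 CPM and 46.4 and 48.02 CPM in WT cells.

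Among the 7 C/EBP genes, 4 rose and 3 fell, beside 36.5% and 36.7% of all tested genes. Cebpb, which drives emergency granulopoiesis and inflammatory genes, had 1861 and 2145 CPM in JUNB-/- cells with zymosan against 251 and 267 CPM with DMSO, a 7.74-fold rise. Cebpe, needed for granule formation late in neutrophil maturation, had 27.2 and 26.4 CPM against 100.3 and 105 CPM, and its log2 change of -1.94 ± 0.06 was deeper than the -0.43 ± 0.07 of WT cells (difference -1.51, edgeR adjusted p = 3.76e-20). Of 11 Kruppel-like factors, 8 rose and 3 fell. Klf6 had 2579 and 2647 CPM against 601 and 587 CPM, and Klf4, a regulator of monocyte differentiation, rose 15.6-fold to 20.6 and 21.4 CPM. Of 16 ATF, CREB and MAF genes, 9 rose and 4 fell (median 0.16, or -0.52 under total-count scaling), led by Maff, a small MAF protein, with 919 and 939.8 CPM with zymosan against 7.45 and 7.901 CPM with DMSO, and by Mafk at a 12.4-fold rise.

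Of 18 cytokine genes tested, 17 rose and 1 fell in JUNB-/- cells, beside 36.5% and 36.7% of all tested genes. The fall was that of Il27, named after its value was seen, which had 6.996 and 5.72 CPM with zymosan and 15.4 and 15.8 CPM with DMSO. Tnf had 4201 and 4134 CPM in JUNB-/- cells with zymosan and 27 and 27.2 CPM with DMSO, against 8897 and 8604 CPM and 95.4 and 100.1 CPM in WT cells. Csf3, which encodes G-CSF, had 147 and 151 CPM in JUNB-/- cells with zymosan against 0 counts with DMSO, at least 2820-fold higher against a floor of 3 counts over the group. Il10, an anti-inflammatory cytokine, had 8.44 and 8.02 CPM against 0 counts, at least 156-fold higher by the same floor. Those zymosan levels were below the WT zymosan levels, which were 234 and 244 CPM for Csf3 and 30.2 and 32.9 CPM for Il10. Il6 reached 1.23 and 1.94 CPM with zymosan in JUNB-/- cells against 0 counts with DMSO, and 6.27 and 7.74 CPM with zymosan in WT cells. Lif had 27.4 and 31.9 CPM with zymosan and 2.12 and 2.23 CPM with DMSO in JUNB-/- cells, against 213 and 212 CPM and 2.21 and 2.29 CPM in WT cells. Lif encodes leukaemia inhibitory factor, a cytokine of the interleukin-6 family, and its DMSO levels overlapped between the genotypes while its zymosan levels did not. The median difference over the 18 genes was 0.91 as fitted and -0.6 with genes at 0 counts set to their bounds. Of these differences 7 were called positive and 2 negative, beside 28.1% and 15.4% of all tested genes.

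Il1b, the main secreted interleukin-1, had 4639 and 4578 CPM with zymosan and 93.2 and 90.8 CPM with DMSO in JUNB-/- cells, against 10449 and 10248 CPM and 1178 and 1177 CPM in WT cells. Il1rn, the receptor antagonist, had 4171 and 4229 CPM and 47.7 and 49.2 CPM in JUNB-/- cells, against 9643 and 9428 CPM and 694 and 677 CPM in WT cells. Both genes lay lower in JUNB-/- cells in each condition, with log2 changes of 5.65 ± 0.04 and 6.44 ± 0.04 in JUNB-/- cells, against 3.14 ± 0.03 and 3.798 ± 0.03 in WT cells (edgeR adjusted p of the difference = 1.12e-46 and 8.83e-47). Il1f9, which encodes interleukin-36 gamma, had 3616 and 3596 CPM with zymosan against 608 and 596 CPM with DMSO, a 5.99-fold rise. Of the 10 interleukin-1 family and receptor genes tested, 9 rose and 1 fell, beside 36.5% and 36.7% of all tested genes. The fall was that of Il18, named after its value was seen, with 1.39 and 2.07 CPM with zymosan and 2.99 and 2.45 CPM with DMSO.

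Of 6 CXC chemokine genes tested, 5 rose, and of 9 CC chemokine genes, 8 rose (4 and 6 under total-count scaling, where 1 CC chemokine gene fell). Among all tested genes 36.5% rose and 36.7% fell in JUNB-/- cells. Cxcl2, a ligand of the neutrophil receptor CXCR2, had 8978 and 9458 CPM with zymosan and 69.2 and 65.95 CPM with DMSO in JUNB-/- cells, against 17393 and 17492 CPM and 619 and 560.0 CPM in WT cells. Ccl3, a chemokine that draws myeloid cells and lymphocytes, had 5095 and 5146 CPM and 85.5 and 79.98 CPM in JUNB-/- cells, against 7376 and 7218 CPM and 202 and 198 CPM in WT cells. Ccl2, the monocyte chemoattractant, had 19.97 and 20.1 CPM and 0.571 and 0.223 CPM in JUNB-/- cells, against 499 and 462 CPM and 75.6 and 70.2 CPM in WT cells. Ccl2 thus rose by a larger log2 step in JUNB-/- cells (5.61 ± 0.17, against 2.72 ± 0.04 in WT cells, edgeR adjusted p of the difference = 1.09e-16) and still stayed below the WT DMSO libraries of the same table. This order did not hold for the second WT table. In a joint fit the WT DMSO libraries of that table had 15.1 and 14.4 CPM, against 21.2 and 21.4 CPM in JUNB-/- cells with zymosan. Cxcl3 rose 58.5-fold to 64.4 and 68.1 CPM, while Ccl7 reached 0.748 and 0.315 CPM and Cxcl1 had 4 and 0 counts with zymosan, each against 0 counts with DMSO. In WT cells with zymosan Ccl7 had 94.6 and 101 CPM and Cxcl1 had 5.35 and 5.69 CPM. The call of Cxcl1 in JUNB-/- cells thus rests on the first zymosan library, without which its log2 change was 0. Among growth factors, 8 of 10 rose. Ereg, the EGF receptor ligand epiregulin, had 8.97 and 8.97 CPM with zymosan in JUNB-/- cells against 0 counts with DMSO, and 119 and 125 CPM with zymosan in WT cells. Areg, amphiregulin, had 1.07 and 0.946 CPM with zymosan in JUNB-/- cells against 0 counts with DMSO, and 199.7 and 210.5 CPM with zymosan in WT cells.

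**Figure D2:**
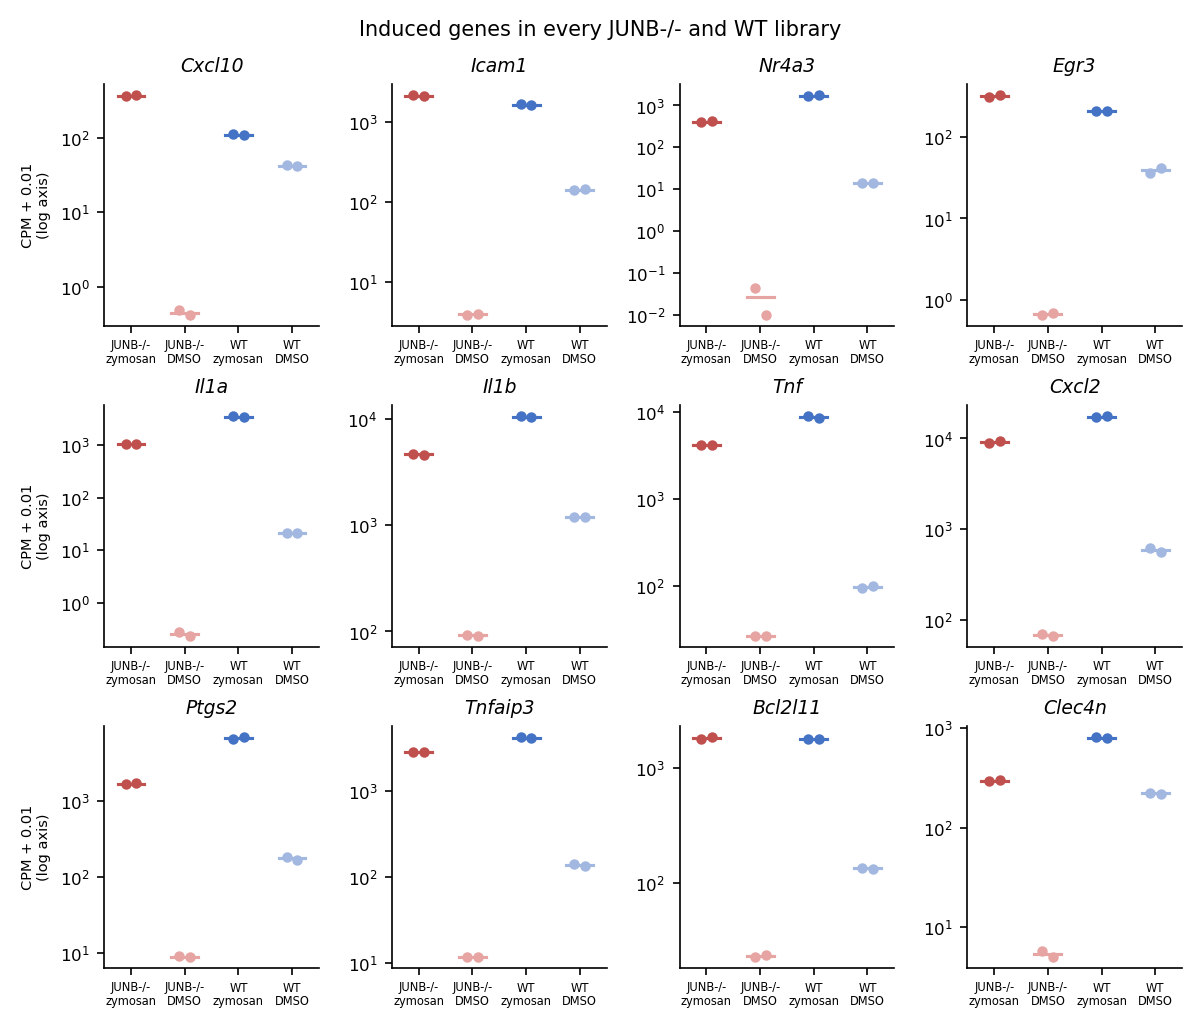
CPM plus 0.01 on a log axis for 12 genes induced by zymosan, with 1 point per library (2 per group) and a line at the group mean, in JUNB-/- zymosan, JUNB-/- DMSO, WT zymosan and WT DMSO order. In all 12 panels both JUNB-/- DMSO libraries are the lowest pair, and the JUNB-/- zymosan libraries are above the WT zymosan libraries for Cxcl10, Icam1 and Egr3 and below them for the others except Bcl2l11, where they overlap.

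Brakes on the response were induced with it. Of 16 feedback inhibitors, 14 rose and 0 fell in JUNB-/- cells (median log2 change 3.4, 1.89 in WT cells), or 11 and 3 under total-count scaling. Among all tested genes 36.5% rose and 36.7% fell in JUNB-/- cells. Tnfaip3, the ubiquitin-editing enzyme A20, had 2861 and 2831 CPM with zymosan and 11.7 and 11.6 CPM with DMSO in JUNB-/- cells, against 4187 and 4145 CPM and 142 and 135 CPM in WT cells. Zc3h12a, the RNase Regnase-1 that degrades cytokine mRNAs, had 1291 and 1286 CPM and 35.6 and 35.02 CPM in JUNB-/- cells, against 772 and 726 CPM and 56.3 and 59.1 CPM in WT cells. Socs1, an inhibitor of JAK kinases, rose 38.7-fold to 7.58 and 7.75 CPM. The rises of Tnfaip3 and Zc3h12a were steeper in JUNB-/- cells by 3.02 ± 0.06 and 1.49 ± 0.06 on the log2 scale (edgeR adjusted p = 1.09e-43 and 3.45e-30). Of 10 dual-specificity phosphatases, which switch off MAP kinases, 9 rose and 1 fell. Dusp2 had 463 and 479 CPM with zymosan against 0.839 and 0.408 CPM with DMSO, and Dusp16 had 715 and 724 CPM against 21.96 and 22.2 CPM. Dusp4 rose 196-fold to 62.2 and 63.7 CPM.

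Of 16 TNF superfamily ligands and receptors, 11 rose and 1 fell in JUNB-/- cells, beside 36.5% and 36.7% of all tested genes. Under total-count scaling 10 rose and 3 fell. Cd40, the costimulatory receptor for CD40 ligand, had 2.67 and 2.75 CPM with zymosan and 0 counts with DMSO in JUNB-/- cells, at least 51.2-fold higher against the floor of 3 counts, beside 4.44 and 4.86 CPM and 0.353 and 0.334 CPM in WT cells. Tnfrsf9, the receptor 4-1BB, had 2.03 and 1.85 CPM with zymosan against 1 and 0 counts with DMSO in JUNB-/- cells, a ratio of 110 (95% counting interval 19.1 to 4380). Both stayed at low levels with zymosan.

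Enzymes of lipid mediators, proteases and survival genes were also called. Ptgs2, the cyclooxygenase COX-2, had 1682 and 1708 CPM with zymosan and 9.099 and 8.903 CPM with DMSO in JUNB-/- cells, against 6515 and 6825 CPM and 183 and 168 CPM in WT cells. Hpgds, haematopoietic prostaglandin D synthase, had 34.3 and 36.7 CPM and 1.44 and 0.853 CPM in JUNB-/- cells, against 26.5 and 23.2 CPM and 7.04 and 6.74 CPM in WT cells. Of 14 eicosanoid and histamine genes, 8 rose and 5 fell, beside 36.5% and 36.7% of all tested genes. Under total-count scaling 7 rose and 7 fell. Of 12 extracellular proteolysis genes, 9 rose and 3 fell. Serpinb2, a plasminogen activator inhibitor, had 529.7 and 523 CPM with zymosan against 14.98 and 14.9 CPM with DMSO in JUNB-/- cells, beside 532 and 552 CPM and 20.2 and 18.3 CPM in WT cells. Mmp13, a collagenase and classical AP-1 target, had 397 and 395 CPM and 42.5 and 40.99 CPM in JUNB-/- cells, against 288 and 294 CPM and 10.8 and 10.3 CPM in WT cells. Mmp13 was higher in JUNB-/- cells in both conditions, and its rise was smaller there, by -1.54 ± 0.07 on the log2 scale. Of 14 BCL2 family genes, 10 rose and 2 fell in JUNB-/- cells (9 and 5 under total-count scaling), against 9 and 5 in WT cells. The difference was positive for all 14, beside 28.1% of all tested genes. It was so under total-count and RLE scaling too, and for 12 against the second WT table. Bcl2l11, which encodes the death inducer BIM, had 1768 and 1825 CPM with zymosan and 23.1 and 24 CPM with DMSO in JUNB-/- cells, against 1784 and 1787 CPM and 137 and 134 CPM in WT cells. The survival genes Bcl2a1a, Bcl2a1b and Bcl2a1d, near-identical copies between which reads may be split, reached 158 and 172, 58.1 and 58.9, and 123 and 129 CPM with zymosan in the 2 JUNB-/- libraries, against at most 1.21 CPM with DMSO.

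Receptors and adhesion genes of migrating neutrophils split, as did all tested genes, of which 36.5% rose and 36.7% fell. Of 14 chemoattractant receptor genes, 8 rose and 6 fell (median 0.61, or -0.06 under total-count scaling). Cxcr2, through which neutrophils sense CXC chemokines, had 647 and 651 CPM with zymosan and 2743 and 2722 CPM with DMSO in JUNB-/- cells, against 114 and 115 CPM and 1591 and 1588 CPM in WT cells. Ptafr, the receptor for platelet-activating factor, had 2478 and 2503 CPM and 176 and 171 CPM in JUNB-/- cells, against 1352 and 1294 CPM and 244 and 243 CPM in WT cells. Fpr1, the formyl peptide receptor, rose 4.91-fold to 6511 and 6567 CPM. The fall of Cxcr2 was shallower in JUNB-/- cells (-2.08 ± 0.03, against -3.79 ± 0.04 in WT cells, edgeR adjusted p of the difference = 5.09e-38). Ccr2, the receptor for Ccl2, changed by -2.10 ± 0.04 in JUNB-/- cells and -2.08 ± 0.05 in WT cells, with no called difference (edgeR adjusted p = 0.832), although without the first WT DMSO library it was called (-0.20, adjusted p = 0.0116). Itga5, the fibronectin receptor subunit, had 169 and 164 CPM with zymosan against 27.6 and 28.9 CPM with DMSO, a 5.88-fold rise. Of 13 adhesion and migration genes, 7 rose and 4 fell (median 0.41, or -0.26 under total-count scaling).

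Granule genes, whose RNA is mostly made earlier in neutrophil maturation, showed no shared direction. Nor did all tested genes, of which 36.5% rose and 36.7% fell. Of 10 specific granule genes, 5 rose and 4 fell with a median of 0.03 (0 and 7 under total-count scaling, and 3 risers when either DMSO library or the first zymosan library was left out), and of 6 azurophil granule genes, 1 rose and 5 were not called (4 fell under total-count scaling). Of 12 gelatinase granule and mature neutrophil genes, 6 rose and 6 fell, or 2 and 10 under total-count scaling. Csf3r, the G-CSF receptor, had 2495 and 2471 CPM with zymosan against 3818 and 3870.3 CPM with DMSO, and Il1r2, the decoy receptor for interleukin-1, had 1173 and 1127 CPM against 363 and 347 CPM. Camp, which encodes the cathelicidin peptide, had 295 and 288 CPM with zymosan against 193 and 184 CPM with DMSO (log2 change 0.62 ± 0.04, or -0.05 under total-count scaling). Lyz2, lysozyme, had 9552 and 9431 CPM with zymosan and 9738 and 9481 CPM with DMSO, and these groups overlapped (log2 change -0.02 ± 0.03, edgeR adjusted p = 0.598), though total-count scaling gave -0.69. Of 7 NADPH oxidase genes, 4 rose and 2 fell, or 1 and 5 under total-count scaling. Cybb, the catalytic subunit gp91phox, had 624 and 613 CPM with zymosan and 886 and 889 CPM with DMSO in JUNB-/- cells, against 408 and 439 CPM and 204 and 203 CPM in WT cells, so that zymosan libraries lay below DMSO libraries in JUNB-/- cells and above them in WT cells. The difference in log2 change was -1.58 ± 0.05 (edgeR adjusted p = 5.74e-34). Ncf1, the p47phox subunit, rose by 0.95 ± 0.03 in JUNB-/- cells and 0.90 ± 0.03 in WT cells, with no called difference (edgeR adjusted p = 0.306).

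With TMM scaling the lists of NRF2, glycolysis, hypoxia and heat shock genes held more rises than falls. Among all tested genes 36.5% rose and 36.7% fell. Of 14 NRF2 and antioxidant genes, 13 rose and 1 fell, or 12 and 2 under total-count scaling (median log2 change 3.3, 1.54 in WT cells). Slc7a11, the cystine importer that feeds glutathione synthesis, had 5653 and 5738 CPM with zymosan and 75.9 and 79.1 CPM with DMSO in JUNB-/- cells, against 7290.5 and 7544 CPM and 429 and 400.2 CPM in WT cells. Sod2, the mitochondrial superoxide dismutase, had 4328 and 4369.9 CPM and 64.3 and 56.4 CPM in JUNB-/- cells, against 1877 and 1775 CPM and 221 and 212 CPM in WT cells. Srxn1 and Txnrd1, which reduce oxidised proteins, rose 41.8-fold and 29.1-fold. Sod2 ended higher with zymosan in JUNB-/- cells than in WT cells of the same table, and Slc7a11 ended lower. Fitted jointly with the WT libraries of the second table, Slc7a11 had 6006 and 6100 CPM in JUNB-/- cells with zymosan. Those WT libraries had 4426 and 4430 CPM with zymosan, so the order of Slc7a11 depends on the WT table. Of 18 glycolysis genes, 16 rose and 2 fell with TMM scaling, and 7 rose and 8 fell under total-count scaling. Slc2a1, the glucose transporter GLUT1, had 1459 and 1492 CPM with zymosan against 272 and 272 CPM with DMSO, and Ldha, lactate dehydrogenase A, had 3081 and 3086 CPM against 753 and 735 CPM. Among 11 hypoxia response genes, 10 rose and 1 fell (8 and 2 under total-count scaling), led by Ankrd37 at 8.54-fold and Ddit4, an inhibitor of mTOR complex 1, at 6.17-fold. Of 13 heat shock genes, 12 rose, and Hsp90aa1 had 433 and 436 CPM against 69.9 and 67.6 CPM.

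Cholesterol synthesis was a list with mostly negative differences. In JUNB-/- cells 13 of its 20 genes rose and 6 fell (7 and 10 under total-count scaling), against 14 and 1 in WT cells. The difference was negative for 12 and positive for 1, beside 15.4% and 28.1% of all tested genes. When WT libraries of another table were used, 10 were positive and 5 negative. Insig1, the sterol-sensing brake on this pathway, had 999.6 and 1032 CPM with zymosan against 79.8 and 78.8 CPM with DMSO. Of 20 cell cycle genes tested, 4 rose, 6 fell and 10 were not called in JUNB-/- cells, against 13 and 3 in WT cells, and the difference was positive for 4 and negative for 8, and not called for 8. Without the second JUNB-/- zymosan library 3 fell in place of 6, and under total-count scaling 13 fell. Apart from a few members this list was at a low level in these cells. Among its risers were Cdkn1a, the cell cycle inhibitor p21, with 848 and 838 CPM against 96.8 and 98.6 CPM, and Pcna, the sliding clamp of DNA replication and repair, with 262 and 258 CPM against 18.3 and 18.8 CPM. Of 20 ribosome biogenesis genes, 12 rose and 2 fell (11 and 5 under total-count scaling), with Ddx21 at 27.9 and 27.6 CPM against 3.26 and 2.45 CPM. Of 8 MYC network genes, 3 rose and 4 fell, beside 36.5% and 36.7% of all tested genes. Myc had 25.05 and 22.6 CPM with zymosan against 0.269 and 0.334 CPM with DMSO, and Mxd1, which competes with MYC for its partner MAX, had 5903 and 5953 CPM against 1706 and 1735 CPM. Of 24 oxidative phosphorylation genes, 10 rose and 8 fell, shares near the 36.5% and 36.7% of all tested genes. These counts became 2 and 21 under total-count scaling, 8 and 5 without the second JUNB-/- zymosan library and 8 and 11 without the second JUNB-/- DMSO library. Uqcrq, a complex III subunit, had 38.5 and 36.05 CPM against 14.04 and 13.8 CPM.

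Interferon-stimulated genes did not move as 1 group. Of 26, 14 rose and 6 fell in JUNB-/- cells (11 and 12 under total-count scaling), beside 36.5% and 36.7% of all tested genes. In WT cells 12 rose and 12 fell. Rsad2, the antiviral protein viperin, had 22.3 and 21.04 CPM with zymosan and 2.38 and 1.85 CPM with DMSO in JUNB-/- cells, against 164 and 170.4 CPM and 111 and 108 CPM in WT cells. Gbp5, a guanylate-binding protein that promotes inflammasome assembly, had 5.02 and 4.01 CPM in JUNB-/- cells with zymosan against 1 and 0 counts with DMSO, a ratio of 254 (95% counting interval 45 to 10100), beside 23.3 and 26.1 CPM and 5.82 and 5.399 CPM in WT cells. Both genes were lower in JUNB-/- cells than in WT cells in each condition. Cd74, the invariant chain of MHC class II, had 146 and 154 CPM with zymosan and 2.32 and 2.26 CPM with DMSO in JUNB-/- cells, against 211 and 213 CPM and 70.9 and 71.4 CPM in WT cells. The 8 dendritic cell and MHC class II markers, among them Cd74, summed to 151 to 159 CPM in JUNB-/- cells with zymosan and 2.41 to 2.52 CPM with DMSO, against 220.5 to 222 CPM and 71.2 to 71.7 CPM in WT cells. Siglech and Ciita were at 0 counts in all 4 groups and H2-Ab1 in both JUNB-/- groups, and the part of these markers in the result was not tested.

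**Figure D3:**
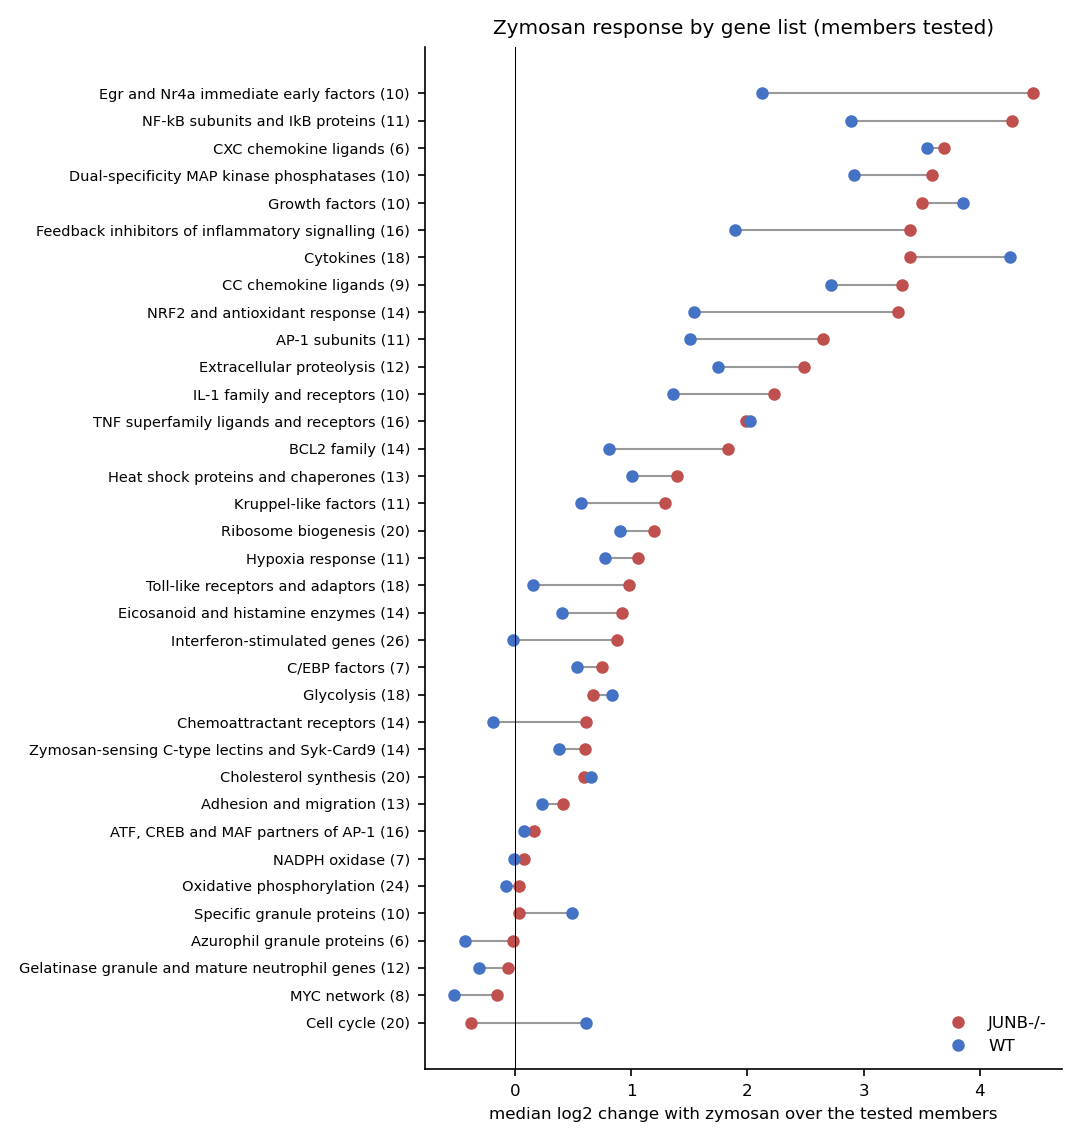
Median log2 change with zymosan over the tested members of each of 35 gene lists (number of members tested in brackets), in JUNB-/- cells (red) and WT cells (blue), with genes at 0 counts in a group set to their lower bounds. The JUNB-/- median is above the WT median for NF-kB (4.28 and 2.89), Egr and Nr4a (4.46 and 2.13) and NRF2 genes (3.3 and 1.54), and below it for cytokines (3.4 and 4.26 with the bounds, although 5.12 and 4.26 as fitted) and cell cycle genes (-0.38 and 0.61).

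Among the genes with a called difference, 2 classes hold those that zymosan raised. In 1578 genes a rise of 2-fold or more in JUNB-/- cells was larger than the change in WT cells, and in 328 genes a rise of 2-fold or more in WT cells was smaller in JUNB-/- cells. Counting only differences of 2-fold or more left 899 larger and 114 smaller rises. Of the 899 genes, 91.3% were lower in JUNB-/- than in WT cells with DMSO, against 54.4% of all tested genes, with a median gap of -1.7 on the log2 scale of CPM + 0.1. With zymosan the median gap of these genes was 0.11, and 47.7% were lower in JUNB-/- cells. Of the 114 genes, 80.7% were lower in JUNB-/- than in WT cells with zymosan (median gap -1.15), and the median gap with DMSO was 0.45. Against the WT libraries of the second table, which are set beside the same JUNB-/- libraries, the difference was called with the same sign for 836 of the 897 larger rises in that fit and was not called for 61. For the 114 smaller rises it was called with the same sign for 52, not called for 54 and called with the opposite sign for 8. Over all 5615 called differences in that fit it was called with the same sign for 3820 (68%). It was not called for 1410 of them and called with the opposite sign for 385. The class of smaller rises thus depends on which WT libraries are the reference. Since a difference in log2 change is the gap with zymosan minus the gap with DMSO, these shares describe where the gap lay and are no separate test. For 3924 genes both genotypes were called in the same direction with no called difference, and for 467 genes the 2 genotypes were called in opposite directions with the difference called.

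**Figure D4:**
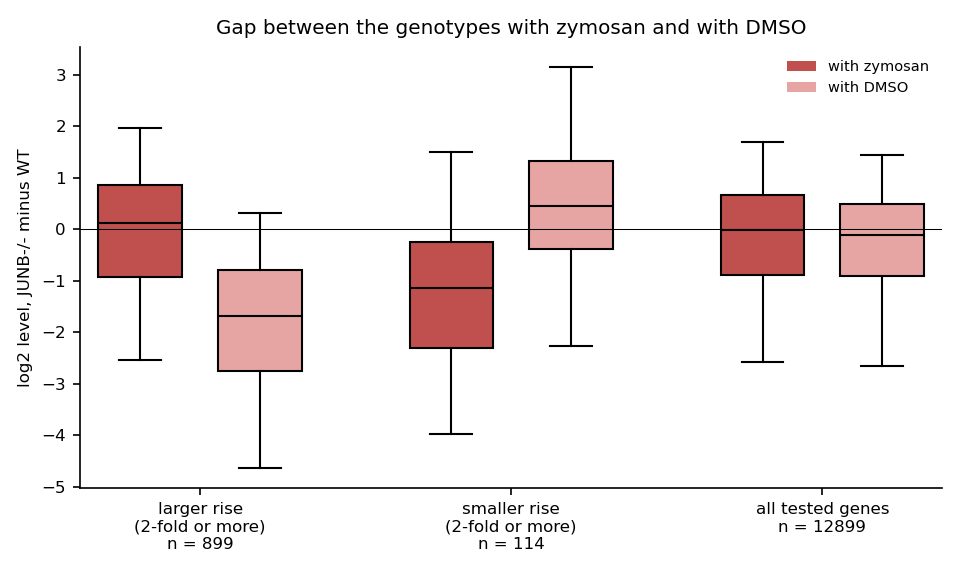
Log2 level in JUNB-/- minus WT cells with zymosan (dark) and with DMSO (light), from group means of CPM + 0.1 over 2 libraries each, for 899 genes with a rise larger in JUNB-/- cells, 114 genes with a rise smaller in JUNB-/- cells and all 12899 tested genes. Boxes span the quartiles with a line at the median and whiskers reach the 5th and 95th percentiles, and the first class is set apart by its DMSO gap (median -1.7) and the second by its zymosan gap (median -1.15).

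Cxcl10 had the largest positive difference of well-measured genes. It rose by 9.68 ± 0.09 on the log2 scale in JUNB-/- cells, against 1.38 ± 0.04 in WT cells, where it had 111 and 109 CPM with zymosan and 42.9 and 41.2 CPM with DMSO (difference 8.30 ± 0.12, edgeR adjusted p = 1.47e-50). Icam1 had 1649 and 1609 CPM with zymosan and 141 and 145 CPM with DMSO in WT cells, and its difference was 5.54 ± 0.07. Btg2, an antiproliferative gene, had 247 and 255.3 CPM with zymosan and 3.32 and 3.45 CPM with DMSO in JUNB-/- cells, against 714 and 715 CPM and 254 and 245 CPM in WT cells (difference 4.69 ± 0.08). Lacc1, a regulator of macrophage metabolism and inflammation, had 29.8 and 28.3 CPM and 0.235 and 0.297 CPM in JUNB-/- cells, against 114 and 113 CPM and 33.8 and 32.6 CPM in WT cells (difference 4.98 ± 0.20). Cxcl10 and Icam1 ended above WT cells with zymosan, while Btg2 and Lacc1 ended below them. Nr4a3, Egr3, Rasgef1b, Cdc42ep2, Egr1 and Il1a made up the rest of the 10 largest positive differences, between 4.68 and 7.25 on the log2 scale.

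The WT libraries of a second count table, with the same labelled days, dose and time, gave the same order of DMSO levels for these genes when fitted jointly. There Cxcl10 had 212 and 213 CPM in WT cells with zymosan and 60.1 and 59.2 CPM with DMSO, on the scale of that fit. Icam1 had 1704 and 1679 CPM with zymosan and 334 and 338 CPM with DMSO in those WT cells. Nr4a1 had 1915 and 1912 CPM and 186 and 177 CPM there. Each WT DMSO library of that table was thus above both JUNB-/- DMSO libraries for the 3 genes, and the differences from its WT response were 7.84 ± 0.12, 6.70 ± 0.07 and 5.61 ± 0.08 (edgeR adjusted p = 1.55e-59, 1.25e-70 and 1.71e-61). Both differences use the same JUNB-/- libraries.

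Among well-measured genes, negative differences were of smaller size. Lif had the largest of them against the WT libraries of the same table, with log2 changes of 3.78 ± 0.11 in JUNB-/- cells and 6.56 ± 0.07 in WT cells (difference -2.78 ± 0.19, edgeR adjusted p = 5.85e-19). Inhba, which encodes the activin A subunit, had 119 and 116 CPM with zymosan and 13.8 and 15.9 CPM with DMSO in JUNB-/- cells, against 341 and 354 CPM and 11.8 and 13.6 CPM in WT cells (difference -1.80 ± 0.09). In both genes the JUNB-/- zymosan libraries stood below the WT zymosan libraries, while the DMSO libraries of the genotypes overlapped for Lif and lay slightly higher in JUNB-/- cells for Inhba. Against the WT libraries of the second table the differences were -0.998 ± 0.17 for Lif and -1.005 ± 0.09 for Inhba, so both were smaller there. Basp1, a membrane-bound growth and signalling protein, had 3.79 and 3.29 CPM with zymosan and 4.298 and 4.53 CPM with DMSO in JUNB-/- cells, against 295 and 302 CPM and 76.7 and 79.3 CPM in WT cells. It was far lower in both JUNB-/- groups than in WT cells, and its difference was -2.26 ± 0.15. Lipg, endothelial lipase, had 39.3 and 40.1 CPM and 95.4 and 99.4 CPM in JUNB-/- cells, against 50.8 and 49.8 CPM and 23.1 and 22.1 CPM in WT cells, and so fell in JUNB-/- cells and rose in WT cells. Mdn1, a ribosome assembly ATPase, had 22 and 20.7 CPM and 47.2 and 53.6 CPM in JUNB-/- cells, against 24.4 and 25.04 CPM and 12.4 and 13.03 CPM in WT cells. Zfp597, a zinc finger gene, had 6.25 and 6.17 CPM and 29.1 and 32.3 CPM in JUNB-/- cells, against 30.3 and 29 CPM and 33.4 and 32.8 CPM in WT cells. Against the WT libraries of the second table the differences of Lipg, Basp1, Mdn1 and Zfp597 were -4.08, -3.04, -2.01 and -2.60, each larger in size than that of Lif. Ampd3, Lin54, Txlna and Pwp1 had differences of -1.75, -1.73, -1.65 and -1.60.

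Dusp6, the phosphatase of ERK, led the genes that changed in opposite directions. It had 66.9 and 68.8 CPM with zymosan and 37.1 and 40.2 CPM with DMSO in JUNB-/- cells, against 38.8 and 34.8 CPM and 187 and 187 CPM in WT cells (difference 3.16 ± 0.07, edgeR adjusted p = 7.90e-41). Irf2bp2, a transcriptional corepressor, had 181 and 189 CPM and 113 and 111 CPM in JUNB-/- cells, against 56.3 and 58.3 CPM and 181 and 180.3 CPM in WT cells. Klf2, which restrains myeloid activation, had 347 and 387 CPM and 148 and 153 CPM in JUNB-/- cells, against 147 and 141 CPM and 266 and 292 CPM in WT cells. All 3 rose in JUNB-/- cells and fell in WT cells, although the rise of Irf2bp2 was only 0.05 under total-count scaling (edgeR adjusted p = 0.354), and so did Arl11, by 1.34 and -0.87 on the log2 scale. In the second WT table Dusp6 and Irf2bp2 changed by -0.61 ± 0.05 and -0.62 ± 0.04, and Klf2 by 0.42 ± 0.04, so the direction of Klf2 in WT cells differed between the tables.

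**Figure D5:**
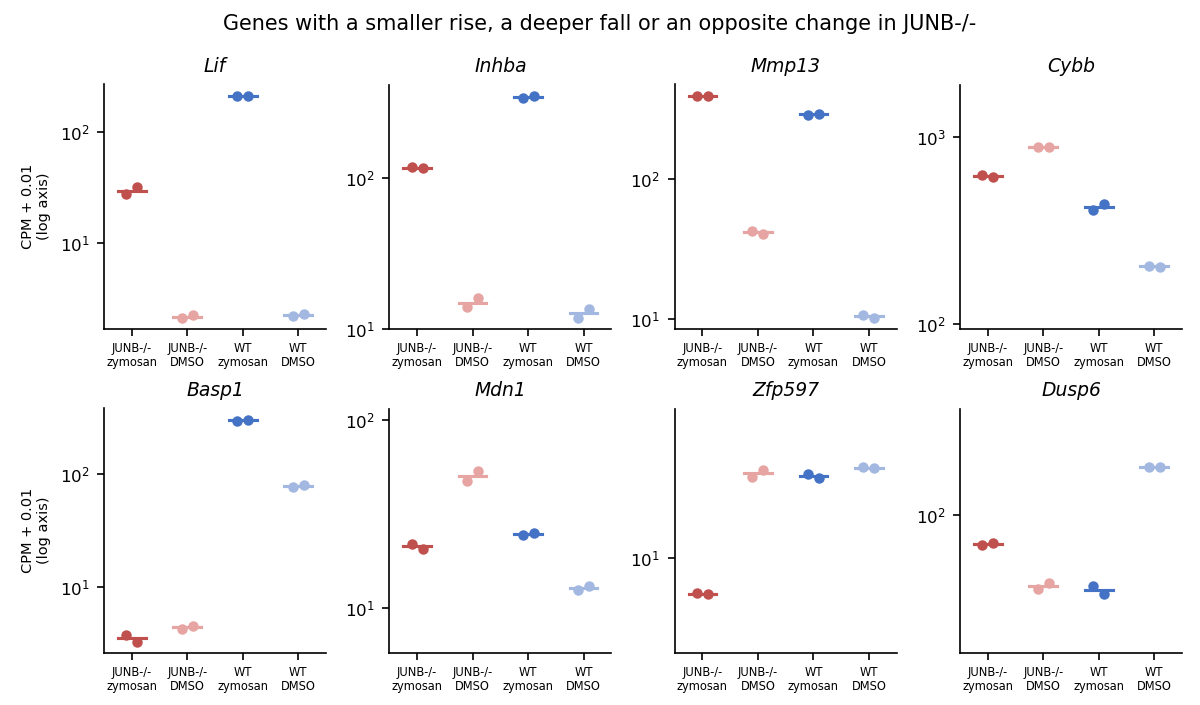
CPM plus 0.01 on a log axis for 8 genes, with 1 point per library (2 per group) and a line at the group mean, in JUNB-/- zymosan, JUNB-/- DMSO, WT zymosan and WT DMSO order. For Lif and Inhba the genotypes are close with DMSO and the JUNB-/- libraries lower with zymosan, Cybb and Mdn1 fall in JUNB-/- cells and rise in WT cells, and Dusp6 does the reverse.

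The promoters of 4 of these genes are shown because they hold the letters of the AP-1 site, TGACTCA on either strand, in genes that responded more (Cxcl10, Nfkbie) and less (Lif, Mmp13) in JUNB-/- cells. They are RefSeq sequences of GRCm38.p6 that run from 250 bases before to 50 bases after the gene start, on the strand of the gene, and capitals mark the AP-1 letters and those of the kB motif of NF-kB.
Cxcl10: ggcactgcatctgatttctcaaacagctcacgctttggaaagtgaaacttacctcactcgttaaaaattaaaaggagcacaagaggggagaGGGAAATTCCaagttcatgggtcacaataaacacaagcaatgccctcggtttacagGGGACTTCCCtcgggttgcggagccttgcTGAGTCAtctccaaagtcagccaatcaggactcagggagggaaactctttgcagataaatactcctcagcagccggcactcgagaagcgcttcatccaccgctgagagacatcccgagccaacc
Nfkbie: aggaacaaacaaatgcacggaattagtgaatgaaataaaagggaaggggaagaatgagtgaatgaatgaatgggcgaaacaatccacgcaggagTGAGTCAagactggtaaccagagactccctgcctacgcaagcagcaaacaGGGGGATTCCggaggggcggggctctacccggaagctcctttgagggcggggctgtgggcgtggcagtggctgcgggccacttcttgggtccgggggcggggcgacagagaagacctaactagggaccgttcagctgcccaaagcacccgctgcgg
Lif: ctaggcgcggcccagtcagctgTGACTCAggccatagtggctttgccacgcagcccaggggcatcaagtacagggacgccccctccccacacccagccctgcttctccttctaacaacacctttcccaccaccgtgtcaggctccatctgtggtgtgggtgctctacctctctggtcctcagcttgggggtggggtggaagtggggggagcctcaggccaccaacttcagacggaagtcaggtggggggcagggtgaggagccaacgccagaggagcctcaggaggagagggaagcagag
Mmp13: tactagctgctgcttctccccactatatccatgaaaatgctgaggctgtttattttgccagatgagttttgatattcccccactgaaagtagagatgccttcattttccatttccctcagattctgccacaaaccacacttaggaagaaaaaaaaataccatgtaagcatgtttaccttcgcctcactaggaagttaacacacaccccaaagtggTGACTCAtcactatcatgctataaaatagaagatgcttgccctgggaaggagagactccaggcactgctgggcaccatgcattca
The windows are chr5:92348840-92349139 on the minus strand for Cxcl10, chr17:45555450-45555749 on the plus strand for Nfkbie, chr11:4257318-4257617 on the plus strand for Lif and chr9:7272264-7272563 on the plus strand for Mmp13. The AP-1 letters begin 74 bases before the gene start in Cxcl10, 156 in Nfkbie, 228 in Lif and 35 in Mmp13, and Cxcl10 has 2 kB matches and Nfkbie 1 that do not overlap them. Among all 32851 promoters of the table, 5.2% held the AP-1 letters and 4.51% the kB motif. A letter match is a description and no proof of a bound site. Of the tested genes 73.0% had a promoter in the table, too few for a comparison of motif shares between the response classes, which is therefore void.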

How the data were processed

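RNA-seq counts of read pairs per gene were used as the authors deposited them, made with STAR and featureCounts 1.6.3 on GRCm38, per the file headers and the submitters' processing notes, with strand taken into account (-s 2) and a mapping quality of 255 (-Q 255). The 4 JUNB-/- and 4 WT libraries were fitted with the 4 CEBPB-/- libraries of the same table, which share the estimate of the spread (edgeR 4.0.16 in R 4.3.3, TMM scaling, quasi-likelihood test, filterByExpr with 10 counts and 15 in all, Benjamini-Hochberg adjustment over 12899 genes). The table also held 18 columns that were not used here. Group levels behind the gaps between genotypes carry a pseudocount of 0.1 CPM, and counting intervals are exact at 95% and cover counting error only. Named genes were Junb and, among genes averaging at least 4 in log2 CPM, the 12 largest rises, 8 largest falls, 10 largest differences each way and up to 6 opposite changes, with all AP-1 subunits, up to 4 called genes of largest change per list, and the 10 genes of highest reads per kb. Genes named for the largest rises and falls also needed zymosan and DMSO libraries that did not overlap in JUNB-/- cells. Those named for differences or opposite changes needed this in JUNB-/- or in WT cells. Members and lists were chosen with earlier results of these data known. Tested on simulated data, the JUNB-/- comparison recovered 58% of 100 genes changed by 0.5 on the log2 scale and 85% of 100 changed by 1, and the difference in response 53% and 72%, of 12139 genes. All simulated libraries shared a common profile and a single spread, and few genes were changed, only in the JUNB-/- zymosan group. The simulation therefore cannot tell how scaling acts when most genes change, as they did here. Alternatives tried were RLE and total-count scaling, DESeq2 1.42.0, limma 3.58.1 with voom, no filter, fewer groups, replicate blocks, each library left out, and the WT libraries of another table in a joint fit. From ATAC-seq of mouse neutrophils, lists of sites more or less open in air pouch exudate than in blood were used as the authors deposited them, with the −log10 adjusted p of each site and the gene assigned to it.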

Additional observations from a re-analysis of the deposited data

Results flagged for a closer look

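The response of 5619 genes differed between JUNB-/- and WT cells by the test of the difference itself. Among genes with a mean log2 CPM of 4 or more, the 10 largest positive differences in log2 change (JUNB-/- minus WT) were 8.30 for Cxcl10, 7.25 for Nr4a3, 6.51 for Egr3, 6.06 for Rasgef1b, 5.89 for Cdc42ep2, 5.54 for Icam1, 4.98 for Lacc1, 4.77 for Egr1, 4.69 for Btg2 and 4.68 for Il1a. In each of these 10 genes the JUNB-/- DMSO libraries lay below the WT DMSO libraries. The 10 largest negative differences among the same genes were -2.78 for Lif, -2.44 for Lipg, -2.26 for Basp1, -2.20 for Mdn1, -2.14 for Zfp597, -1.80 for Inhba, -1.75 for Ampd3, -1.73 for Lin54, -1.65 for Txlna and -1.60 for Pwp1. Genes called in opposite directions, with a rise in JUNB-/- cells and a fall in WT cells, had differences of 3.16 for Dusp6, 2.37 for Irf2bp2, 2.24 for Klf2 and 2.21 for Arl11.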

How the results depend on the processing

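The counts of called genes stayed within 1.5 times under every scaling, tool, filter and block tried. A 2-fold minimum reduced them to 5126 genes in JUNB-/- cells, 4720 in WT cells and 1622 for the difference. Leaving out single libraries gave 8776 to 9120 genes in JUNB-/- cells, 9009 to 9359 in WT cells and 4984 to 5296 for the difference. Same-numbered libraries deviated together between JUNB-/- DMSO and WT DMSO (r = 0.329) but not between JUNB-/- zymosan and DMSO (-0.101) or in WT cells (-0.144), so the numbers were not taken as a pairing. The replicate block gave 9392, 9688 and 5552 genes, and 9308, 9586 and 5430 with a block per genotype. With crossed numbers in JUNB-/- cells, an alternative added after seeing the data, 9336 genes were called there and 5502 for the difference. Total-count scaling turned the response of Camp to -0.05 and of S100a9 to -0.36. With the WT libraries of the other table as the reference, the difference changed sign for Sema6b (-0.60), Cdkn1a (-0.57), Slc2a1 (-0.01), Fosl2 (-0.28), Cxcl3 (-0.62), Malt1 (0.32), Jdp2 (0.044), Gpr146 (-0.012), Abcd2 (-0.30), S100a9 (-0.17), Serpinb2 (-1.84) and Ldha (-0.47), and the cause was not tested. Genes with few reads in the JUNB-/- DMSO libraries, such as Nr4a3 and Il23a, are limited by counting error.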

Other observations

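Sites that ATAC-seq found more open in neutrophils of the air pouch exudate than of blood gave a value outside the comparisons above. Such a site was assigned by the authors' deposited list to 216 of the 899 genes whose rise was larger by 2-fold or more in JUNB-/- cells, to 18 of the 114 genes whose rise was smaller by 2-fold or more, and to 1308 of all 12899 tested genes. Sites less open in exudate were assigned to 43, 9 and 647 of the same genes. Without that 2-fold minimum, sites more open in exudate were assigned to 356 of 1578 larger rises and 78 of 328 smaller rises. Without the minimum the shares of larger and smaller rises were close, whereas with it the share was higher among the larger rises. Whether the sites set the larger rises apart from the smaller ones was not tested. Of the 2906 genes that rose by 2-fold or more in JUNB-/- cells, 521 had a site more open in exudate. These are shares of genes from other cells than the cultured line, and no test was made of them.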
